A study of Mus musculus with 8 samples.

Results

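The elastic-fibre and microfibril genes are 10 genes that build the stretchable fibres of connective tissue, namely *Eln*, *Fbn1*, *Fbln1*, *Fbln2*, *Fbln5*, *Efemp1*, *Efemp2*, *Mfap4*, *Mfap5* and *Emilin1*. They were taken by gene symbol from the 16686 usable rows of the gene table, and all 10 had a row and passed the filter on low counts. They were compared in the tibialis anterior (TA), a fast-twitch muscle of the lower leg, of male FVBN mice labelled as 22 months old. The 4 C2-/- mice lack fast myosin binding protein-C, a thick filament protein of fast fibres, because a Neo cassette with LoxP sites stands in place of exons 2 to 22 of *Mybpc2*. The 4 wild-type (WT) mice carry the intact gene. The gene is disrupted in the germline and thus in all cells, not only in muscle fibres, and mice of 1 sex and 1 age were sequenced, with 1 library per mouse.

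Elastic fibres have a core of crosslinked elastin inside a mantle of fibrillin microfibrils. The soluble elastin monomer is brought onto the microfibrils with the help of fibulins and is then crosslinked by lysyl oxidases. In skeletal muscle, these fibres lie in the connective tissue sheaths, the walls of vessels and the junction with the tendon, and fibroblasts and smooth muscle cells make most of their components. Elastin is deposited mainly during growth and turns over very slowly.

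Each mouse had between 25425993 and 29747692 expected counts, and 3 counts, the smallest level read as detected, corresponded to 0.101 to 0.118 CPM, the count relative to the TMM-scaled library size, which covers counting error only. *Mybpc2* was at 4964 to 7392 CPM in the WT mice, at 38.3 CPM in C2-/- replicate 3 and at 3.85 to 4.35 CPM in the other C2-/- mice (log2 fold change -8.82, edgeR adjusted p = 0.0075). The summed level of 9 fast fibre markers was between 158221 and 208989 CPM over all mice. WT replicate 2 stood apart, with a median correlation of 0.958 to the other mice over all genes tested, against 0.974 to 0.982 for the others. Summed immediate early genes, which respond within minutes to handling of a tissue, reached 496 CPM in WT replicate 2, 1155 in WT replicate 4 and 702 in C2-/- replicate 2, and were between 27.8 and 72.5 CPM in the other mice.

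Among the 10 genes, 9 had a fitted log2 fold change above 0 in C2-/- (*Fbln5* by under 0.01) and only *Eln* one below 0, and the median log2 fold change was 0.36, where the median of all 12542 genes tested was -0.02. The members summed to 123, 103, 142 and 96.0 CPM in WT replicates 1 to 4 and to 138, 150, 146 and 167 CPM in C2-/- replicates 1 to 4, so that the ranges met only through WT replicate 3. None of the 10 reached an adjusted p under 0.05 with edgeR's quasi-likelihood test, DESeq2 or limma-voom, where edgeR called 0.0319% of all genes tested. An unadjusted p under 0.05 was reached by 3 members, *Fbn1*, *Fbln1* and *Fbln2*, with each of these tools, and edgeR called 5.29% of all genes tested at this threshold. All 3 were higher in C2-/-, where 3.38% of all genes tested were higher at this threshold and 1.91% were lower. In 0 of the 10 genes were the genotypes free of overlap, where 2.03% of all genes tested did not overlap with higher values in C2-/- and 1.36% with lower values. Of all genes tested, 45.8% had a log2 fold change above 0. Since whole muscle was sequenced, fewer or more cells of a type and less or more RNA per cell cannot be told apart.

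**Figure D1:**
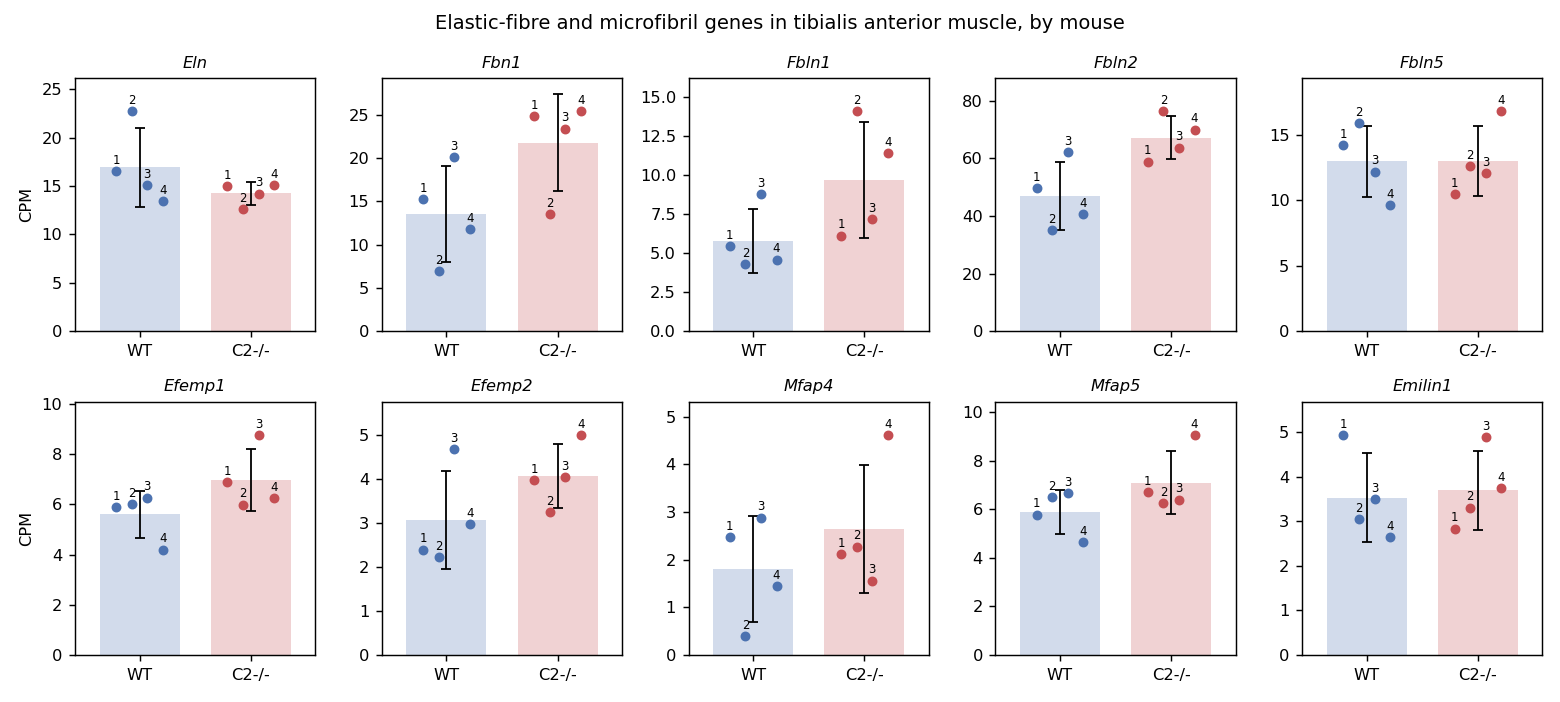
Level of each of the 10 genes in CPM on a linear axis from 0, with 1 numbered point per mouse, the mean as a bar and the SD as a line (n = 4 mice per genotype). The genotypes overlap in every panel, and 3 of the 4 C2-/- mice lie above the highest WT mouse for *Fbn1* and *Fbln2*.

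*Eln* (gene ID 13717, chromosome 5 from 134702595 to 134747368 in GRCm38) encodes tropoelastin, the monomer of the elastic core. It was at 16.5, 22.7, 15.1 and 13.4 CPM in WT replicates 1 to 4 and at 15.0, 12.6, 14.2 and 15.1 CPM in C2-/- replicates 1 to 4. WT replicate 2 was the highest mouse, and the C2-/- mice spread less, with a coefficient of variation of 8.29% against 24.0% in WT. The log2 fold change was -0.25 (95% confidence interval -0.62 to 0.12, unadjusted p = 0.163, adjusted p = 0.968 from edgeR). Without WT replicate 2 it was -0.07. The difference did not pass the test in either case. The exons of *Eln* overlap those of *Gm30003* on the other strand.

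*Fbn1* (gene ID 14118, chromosome 2 from 125300594 to 125506503) encodes fibrillin-1, the backbone of the microfibril. In WT replicates 1 to 4 it was at 15.3, 6.93, 20.1 and 11.8 CPM, and in C2-/- replicates 1 to 4 at 24.9, 13.5, 23.4 and 25.4 CPM. Replicates 1, 3 and 4 of C2-/- were above every WT mouse, while C2-/- replicate 2 lay within the WT range. The fitted level was 1.61-fold higher in C2-/- (log2 fold change 0.69, standard error 0.30, edgeR unadjusted p = 0.0450, adjusted p = 0.922). Leaving out WT replicate 2, the lowest mouse, gave a log2 fold change of 0.48 with an unadjusted p of 0.0708, and the unadjusted p was also above 0.05 without WT replicates 1 or 4 or C2-/- replicates 1, 3 or 4. The exons of *Fbn1* overlap those of an antisense gene, *Gm9913*, and the strand used in counting is not stated.

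Both long fibulins had higher means in C2-/-. Fibulin-1 and fibulin-2 are glycoproteins that bind fibrillin microfibrils, basement membranes and the proteoglycan versican. *Fbln1* (gene ID 14114, chromosome 15 from 85205942 to 85286502) was at 5.44, 4.30, 8.78 and 4.60 CPM in WT replicates 1 to 4 and at 6.13, 14.1, 7.20 and 11.4 CPM in C2-/- replicates 1 to 4. C2-/- replicates 2 and 4 were above every WT mouse, and the other C2-/- mice lay below WT replicate 3. Its fitted difference was 1.68-fold (log2 fold change 0.75, standard error 0.30, edgeR unadjusted p = 0.0330, adjusted p = 0.914). Leaving out WT replicates 1, 2 or 4 or C2-/- replicates 2 or 4 took the unadjusted p above 0.05, and the log2 fold change without C2-/- replicate 2 was 0.52.

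*Fbln2* (gene ID 14115, chromosome 6 from 91212764 to 91272540) was at 49.7, 35.1, 62.2 and 40.7 CPM in WT replicates 1 to 4. Its level in C2-/- replicates 1 to 4 was 58.9, 76.3, 63.7 and 70.0 CPM. Only WT replicate 3 and C2-/- replicate 1 kept the genotypes from separating, and C2-/- varied less, with a coefficient of variation of 11.3% against 25.2% in WT. The level was 1.43-fold higher in C2-/- (log2 fold change 0.52, 95% confidence interval 0.13 to 0.91, unadjusted p = 0.0141, adjusted p = 0.780 from edgeR). *Fbln2* was the member whose unadjusted p stayed under 0.05 when any single mouse was left out, with log2 fold changes from 0.41 to 0.69. A further fit, chosen after seeing the data, left out the 3 mice with high immediate early genes. It kept only WT replicates 1 and 3 and C2-/- replicates 1, 3 and 4. The log2 fold change was then 0.20 for *Fbln2* (unadjusted p = 0.226) and 0.22 for *Fbln1* (unadjusted p = 0.486), while that of *Fbn1* was 0.48 (unadjusted p = 0.0179, all from edgeR). For *Fbln1* and *Fbln2*, the mice left out were the lowest WT mice and the highest C2-/- mouse.

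The short fibulins act closer to elastin itself. Fibulin-5 tethers tropoelastin and lysyl oxidase-like 1 to the microfibril, fibulin-4, the product of *Efemp2*, is needed for crosslinking by lysyl oxidase, and *Efemp1* encodes fibulin-3. *Fbln5* (gene ID 23876, chromosome 12 from 101746565 to 101819130) was at 14.2, 15.9, 12.2 and 9.63 CPM in WT replicates 1 to 4 and at 10.5, 12.6, 12.1 and 16.8 CPM in C2-/- replicates 1 to 4. Its means were the same to 3 digits, 13.0 CPM in both genotypes, and the 95% confidence interval of the log2 fold change ran from -0.42 to 0.42 (unadjusted p = 0.994 from edgeR).

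*Efemp1* (gene ID 216616, chromosome 11 from 28853205 to 28926743) was at 5.90, 6.02, 6.27 and 4.20 CPM in WT and at 6.89, 5.99, 8.76 and 6.24 CPM in C2-/-, in replicate order. WT replicate 4 was the lowest mouse and C2-/- replicate 3 the highest. The log2 fold change was 0.32 (95% confidence interval -0.09 to 0.72, unadjusted p = 0.112 from edgeR), and it was 0.19 without C2-/- replicate 3 and 0.21 without WT replicate 4. *Efemp2* (gene ID 58859, chromosome 19 from 5473960 to 5481854) was at 2.39, 2.22, 4.67 and 2.97 CPM in WT and at 3.97, 3.24, 4.04 and 4.99 CPM in C2-/-, in the same order. Every C2-/- mouse was above the WT replicates other than replicate 3. The log2 fold change was 0.41 (95% confidence interval -0.16 to 0.98, unadjusted p = 0.143 from edgeR), and without WT replicate 3 it was 0.69 with an unadjusted p of 0.0114. The exons of *Efemp2* overlap those of *Mus81* on the other strand.

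The sequences before *Fbln1*, which was higher in C2-/- by the unadjusted test, and *Fbln5*, which had equal means, are shown to let their composition be compared. Each run holds the 250 bases before the gene start in RefSeq (GRCm38.p6), 5′ to 3′ on the strand of the gene, at chr15:85205699-85205948 on the plus strand for *Fbln1* and chr12:101819120-101819369 on the minus strand for *Fbln5*. The gene interval of the table starts slightly earlier than the RefSeq start, so the last 7 bases of the *Fbln1* run and the last 11 of the *Fbln5* run lie inside it. Capitals mark a GC box (GGGCGG on either strand).
Fbln1: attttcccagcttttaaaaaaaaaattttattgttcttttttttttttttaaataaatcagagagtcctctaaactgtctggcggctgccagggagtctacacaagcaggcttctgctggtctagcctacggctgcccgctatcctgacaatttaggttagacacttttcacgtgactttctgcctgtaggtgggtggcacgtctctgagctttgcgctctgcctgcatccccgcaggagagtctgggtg
Fbln5: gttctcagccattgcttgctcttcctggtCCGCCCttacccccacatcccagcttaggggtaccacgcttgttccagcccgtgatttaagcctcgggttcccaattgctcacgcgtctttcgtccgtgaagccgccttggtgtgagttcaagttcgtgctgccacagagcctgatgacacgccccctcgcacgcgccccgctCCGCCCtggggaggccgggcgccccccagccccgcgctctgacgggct
The *Fbln1* run has a GC content of 46.4% and no GC box, and the *Fbln5* run has a GC content of 65.2% and 2 GC boxes. RefSeq promoter entries were found for 7 of the 10 members, and none was found for *Eln*, *Mfap4* and *Mfap5*. Of the other windows, that of *Emilin1* lies wholly inside the gene interval of the table and that of *Fbn1* has 65 bases inside, while those of *Fbln2*, *Efemp1* and *Efemp2* lie before it. A GC box was present in the window of 5 of these 7 genes, *Fbn1*, *Fbln2*, *Fbln5*, *Efemp1* and *Efemp2*, and in 33% of the 27025 promoters of the same length, whose median GC content was 52%. The windows of members other than *Fbln1* and *Fbln5* had GC contents of 53.6% to 63.2%, and promoters of like GC content were not compared. TATAAA was found in 0 of the 7 windows and in 13% of all promoters. TGANTCA, the AP-1 motif, was found in the *Efemp1* window alone among the members and in 6.85% of all promoters. GGAATG, the TEAD core, and the CArG box, a further motif, were found in 0 of the 7 windows. All promoters held them in 12.6% and 1.41% of cases. Both strands were searched. The windows of *Fbn1* and *Fbln2* held a GC box and that of *Fbln1* did not, so the 3 genes with an unadjusted p under 0.05 did not share it. These matches describe letters and not binding.

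The remaining members encode microfibril-associated proteins and emilin-1. *Mfap5* (gene ID 50530, chromosome 6 from 122513383 to 122530703), whose product MAGP2 binds fibrillin, was at 5.78, 6.49, 6.65 and 4.63 CPM in WT and at 6.70, 6.25, 6.39 and 9.05 CPM in C2-/-, in replicate order. Apart from C2-/- replicate 4, the C2-/- mice lay close to WT replicates 2 and 3. The log2 fold change was 0.27 (95% confidence interval -0.12 to 0.66, unadjusted p = 0.158 from edgeR), and it was 0.13 without C2-/- replicate 4 and 0.18 without WT replicate 4.

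*Mfap4* (gene ID 76293, chromosome 11 from 61485378 to 61488708) encodes a protein that binds both elastin and fibrillin. It was at 2.47, 0.401, 2.88 and 1.45 CPM in WT and at 2.12, 2.27, 1.56 and 4.61 CPM in C2-/-, in replicate order. It varied most among the members, with coefficients of variation of 61.6% in WT and 51.1% in C2-/-, and its counts ranged from 11.0 in WT replicate 2 to 133. The log2 fold change was 0.56 with a 95% confidence interval from -0.59 to 1.71 (unadjusted p = 0.307 from edgeR), and it was 0.14 without C2-/- replicate 4, 0.23 without WT replicate 2 and 0.88 without WT replicate 3. Its exons overlap those of *Mapk7* on the other strand.

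*Emilin1* (gene ID 100952, chromosome 5 from 30913382 to 30921279) encodes a glycoprotein at the boundary of elastin and microfibrils. Its level was 4.94, 3.06, 3.51 and 2.64 CPM in WT and 2.84, 3.31, 4.90 and 3.74 CPM in C2-/-, in replicate order. The highest values of both genotypes were nearly equal, and the log2 fold change was 0.07 (95% confidence interval -0.48 to 0.61, unadjusted p = 0.794 from edgeR).

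**Figure D2:**
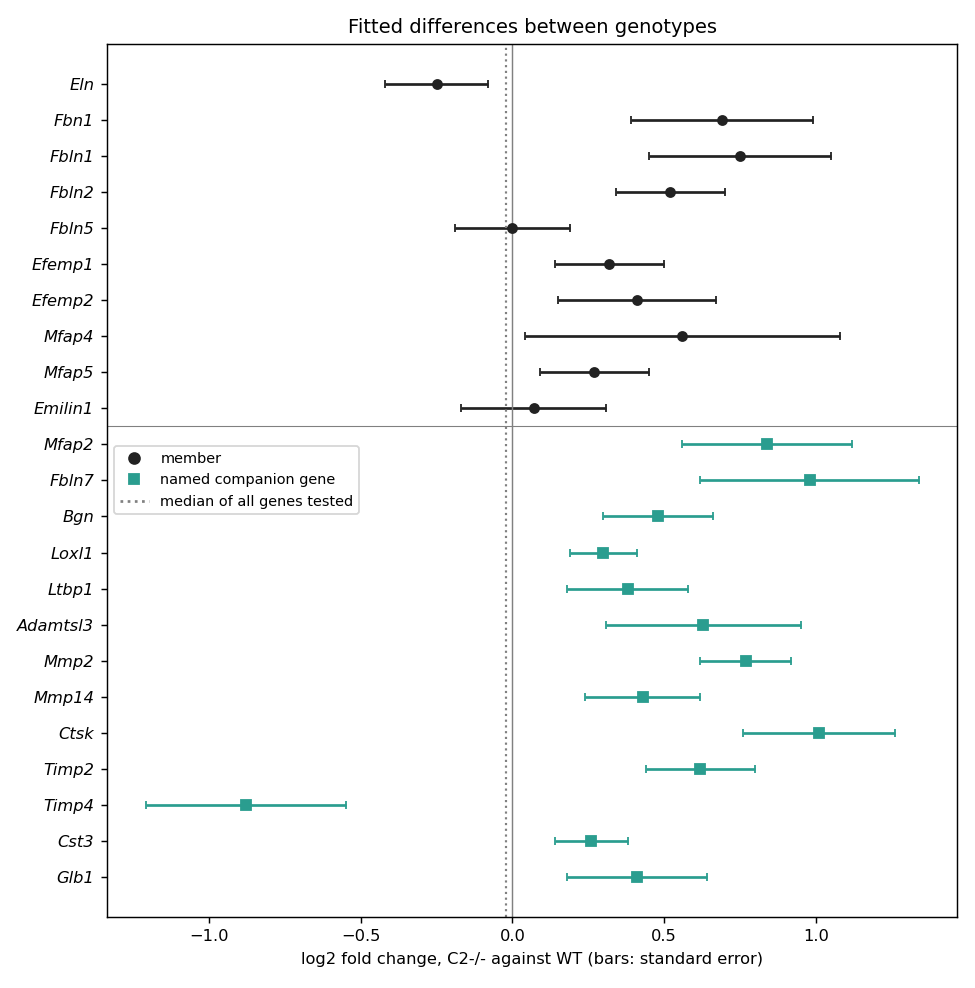
Fitted log2 fold change of C2-/- against WT (x axis), with the standard error as a bar, for the 10 members (circles) and the 13 companion genes named in the text (squares). The dotted line is the median of all genes tested, -0.02, and *Eln* and *Timp4* are the genes below it.

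Levels were compared between genes as the deposited TPM (a share of all transcripts in which each count is divided by the transcript length). In WT, *Fbln2* had the highest level at 19.5 ± 6.38 TPM (SD, n = 4). It was followed by *Fbln5* at 9.09 ± 1.60 TPM, *Mfap5* at 9.07 ± 1.86 TPM and *Eln* at 8.71 ± 1.75 TPM, whose ranges over mice overlapped. *Fbln2* was above *Fbln5* in all 4 WT and all 4 C2-/- mice. Below *Eln* came *Efemp1* at 5.37 TPM, *Fbln1* at 4.15, *Efemp2* at 3.59, *Fbn1* at 2.50, *Mfap4* at 2.27 and *Emilin1* at 1.82 TPM as WT means, and each neighbour in this order overlapped the next. The WT ranges of *Eln* and *Efemp1* did not overlap, and those of the C2-/- mice did, with *Eln* above *Efemp1* in 3 of 4. In C2-/-, *Mfap5* (11.2 ± 1.66 TPM) was above *Fbln5* (9.69 ± 2.35 TPM) in every mouse, where 2 of 4 WT mice had this order reversed.

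**Figure D3:**
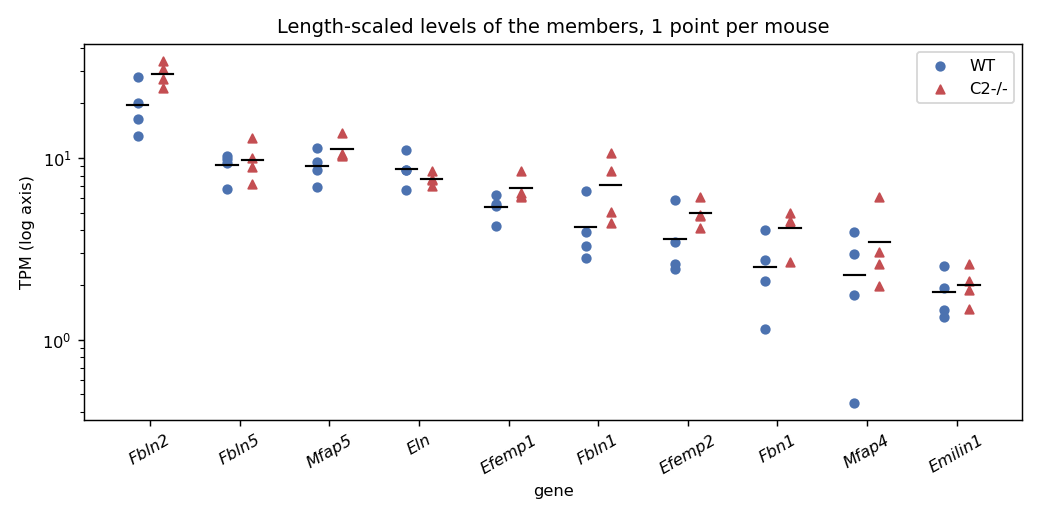
Deposited TPM on a log axis for the 10 members in the order of their WT mean, with 1 point per mouse (circles WT, triangles C2-/-) and the genotype mean as a line. *Fbln2* lies above the other members in both genotypes, with means of 19.5 TPM in WT and 29.0 TPM in C2-/-.

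Within a genotype, the members did not all follow the same mice. When each gene's log2 CPM was standardized over the 8 mice, the mean over the members was -0.04, -0.57, 0.30 and -1.09 in WT replicates 1 to 4 and 0.02, 0.07, 0.40 and 0.90 in C2-/- replicates 1 to 4. WT replicate 2 held the lowest value of 5 members and WT replicate 4 that of 4, while C2-/- replicate 4 held the highest value of 5. The low and high ends were thus set by a few mice, and WT replicate 3 was above C2-/- replicates 1 and 2. Of the 45 pairs of members, 37 had a Pearson correlation above 0 and 8 under 0, with a median of 0.40. In a two-sided exact permutation test of the Pearson correlation, 7 pairs had an unadjusted p under 0.05 and 0 pairs an adjusted p under 0.05 over the 45 pairs. The same shares were not computed for pairs of other genes, so these counts do not set the members apart from them.

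The closest pair was *Fbln1* and *Fbln2*, with a Pearson r of 0.92 over 8 mice (exact permutation p = 0.00156, adjusted p = 0.0703 over 45 pairs) and a Spearman rho of 0.98 (exact permutation p = 0.000397, adjusted p = 0.0179). It was 0.92 without the 2 mice farthest from the median of *Fbln1* and 0.87 after each genotype was centred. *Fbn1* and *Efemp2* followed, with r = 0.85 (exact permutation p = 0.00742, adjusted p = 0.167) and rho = 0.83 (exact permutation p = 0.0154, adjusted p = 0.346), with 0.76 without the 2 farthest mice and 0.77 after centring. *Eln* and *Fbln2* had r = -0.67 (exact permutation p = 0.0649, adjusted p = 0.292) and rho = -0.52 (exact permutation p = 0.197, adjusted p = 0.492), and r turned to 0.30 without the 2 farthest mice, so the negative value rested on those mice. All pairs share the same libraries.

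**Figure D4:**
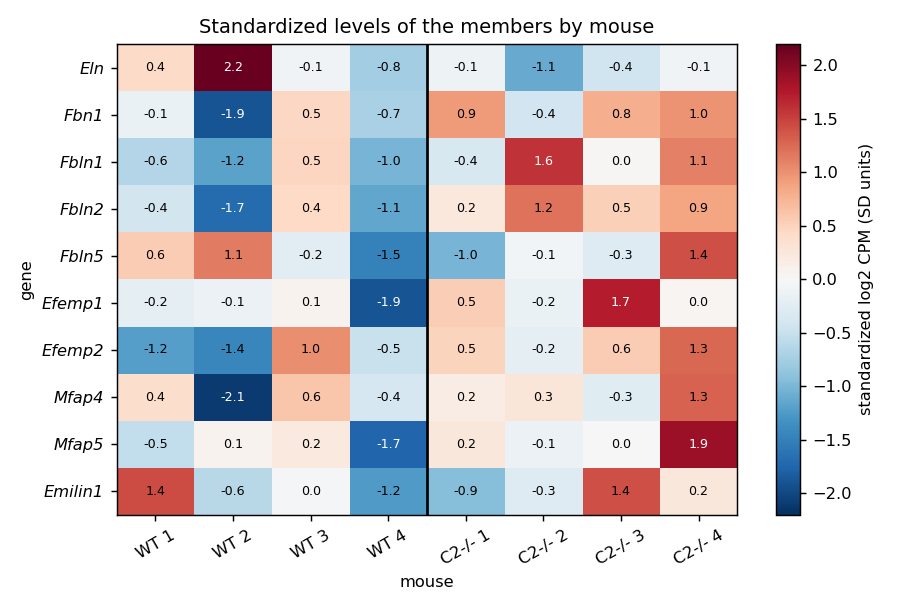
Standardized log2 CPM (SD units over the 8 mice, printed in each cell) of the 10 members (rows) in each mouse (columns), with the genotypes divided by the black line. WT replicate 2 is lowest for 5 members and highest for *Eln*, and C2-/- replicate 4 is highest for 5 members.

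Over the 8 mice, the 5 genes whose log2 CPM was most like the mean standardized level of the members, among 12532 other genes tested, were *Shank1* (r = 0.98), *Stab1* (0.95), *Kcnj15* (0.95), *C1s1* (0.94) and *Slc29a3* (0.94). *Stab1* was at 12.0, 9.30, 14.9 and 6.95 CPM in WT and at 10.8, 14.2, 13.9 and 16.3 CPM in C2-/-, in replicate order, and thus was lowest in WT replicate 4 and highest in C2-/- replicate 4, as the members' mean was. *Shank1* and *Kcnj15* had mean levels of 0.314 and 0.589 CPM, close to the detection level. These correlations are the highest of a search and carry no p.

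The other genes of the pathway were described by lists. The counts of each list stand beside shares of all genes tested. Of these, 3.38% were higher and 1.91% lower at an unadjusted p under 0.05, and 45.8% had a log2 fold change above 0. Values did not overlap, with C2-/- higher, in 2.03% of all genes tested. Of 11 other structural genes, *Fbn2* had no row in the table used and 8 were tested, with 7 higher and 1 lower in C2-/-, a median log2 fold change of 0.45 and 3 genes higher at an unadjusted p under 0.05. *Mfap2*, which encodes the microfibril protein MAGP1, was at 1.70, 0.948, 1.57 and 1.05 CPM in WT and at 2.01, 2.49, 1.88 and 3.05 CPM in C2-/-, in replicate order, without overlap (log2 fold change 0.84, unadjusted p = 0.0121, adjusted p = 0.755 from edgeR). *Bgn*, which encodes the proteoglycan biglycan, was at 63.9, 43.4, 72.7 and 42.3 CPM in WT and between 74.3 and 81.1 CPM in C2-/-, also without overlap (log2 fold change 0.48, unadjusted p = 0.0210, adjusted p = 0.849). *Fbln7*, another fibulin gene, had a log2 fold change of 0.98 (unadjusted p = 0.0209, adjusted p = 0.849) with overlapping values. The unadjusted p of *Mfap2* stayed under 0.05 when any single mouse was left out. That of *Bgn* was 0.0544 without WT replicate 4, and that of *Fbln7* was 0.0524 to 0.0692 without WT replicate 1 or C2-/- replicates 3 or 4.

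Of the 5 lysyl oxidases, which crosslink elastin and collagen, 4 were higher and 1 was lower, with a median log2 fold change of 0.48 and 1 gene at an unadjusted p under 0.05. *Loxl1*, the partner of fibulin-5, was at 17.2, 20.1, 18.1 and 18.9 CPM in WT and at 23.6, 19.7, 22.8 and 25.2 CPM in C2-/-, with only C2-/- replicate 2 inside the WT range (log2 fold change 0.30, standard error 0.11, edgeR unadjusted p = 0.0263, adjusted p = 0.882). Its unadjusted p was 0.0534 to 0.0775 without WT replicate 1 or C2-/- replicates 1 or 4. *Lox* was the lower gene, with 14.5 CPM in WT replicate 2 against 3.66 to 7.88 CPM in the other mice, and its log2 fold change of -0.35 did not pass the test (unadjusted p = 0.346). Without WT replicate 2 it was 0.11 (unadjusted p = 0.666), and all 5 lysyl oxidases then had a log2 fold change above 0, with a median of 0.34. Latent TGF-beta binding proteins, which tie the growth factor to microfibrils, and the TGF-beta ligands had 4 higher and 2 lower of 6 tested, 0 of them at an unadjusted p under 0.05, and 3 higher and 3 lower without WT replicate 2. *Ltbp1* had the smallest p of these, with 6.29, 5.22, 9.90 and 9.23 CPM in WT and 9.60 to 10.5 CPM in C2-/- (log2 fold change 0.38, unadjusted p = 0.0831). Among 8 ADAMTS and ADAMTS-like genes tested, 5 were higher and 3 lower with a median of 0.02, against 4 and 4 without WT replicate 2, and the smallest p was that of *Adamtsl3* (log2 fold change 0.63, unadjusted p = 0.0792).

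Enzymes that can cut elastin or microfibrils gave the smallest p-values among the genes of these lists. Of 6 tested, 4 were higher and 2 were lower, with a median log2 fold change of 0.52, and 3 were higher at an unadjusted p under 0.05. The lower genes were *Ctsl*, with 185 CPM in WT replicate 2 against 32.4 to 47.8 CPM in the other mice, and *Mmp9*. Without WT replicate 2, the log2 fold change of *Ctsl* went from -0.89 to 0.02 and that of *Mmp9* from -0.30 to 0.20, so that all 6 genes were above 0, with a median of 0.64. *Mmp2*, a gelatinase of fibroblasts, was at 23.8, 23.0, 32.9 and 24.5 CPM in WT and at 36.9, 46.8, 42.5 and 51.5 CPM in C2-/-, without overlap. It was 1.70-fold higher in C2-/- (log2 fold change 0.77, standard error 0.15, unadjusted p = 0.000468), and its adjusted p was 0.391 with edgeR. DESeq2 gave it an adjusted p of 0.00387, while it was 0.125 or more with each other alternative. *Ctsk*, the elastolytic cathepsin K, was at 1.70, 1.13, 1.64 and 1.45 CPM in WT and at 2.46, 2.64, 4.11 and 2.67 CPM in C2-/-, again without overlap (log2 fold change 1.01, standard error 0.25, edgeR unadjusted p = 0.00202, adjusted p = 0.571). For both genes, the unadjusted p stayed under 0.05 when any single mouse was left out. *Mmp14*, which activates the *Mmp2* product, had a log2 fold change of 0.43 (unadjusted p = 0.0487), which was 0.24 without C2-/- replicate 4. Its unadjusted p was above 0.05 without WT replicates 1, 3 or 4 or C2-/- replicates 1 or 4, and it was 0.0533 with limma-voom.

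Inhibitors of these enzymes had fold changes in both directions, with 2 higher and 3 lower of 5, and 3 higher and 2 lower without WT replicate 2. *Timp2* was at 99.1, 65.7, 119 and 110 CPM in WT and at 146, 144, 139 and 176 CPM in C2-/-, without overlap (log2 fold change 0.62, standard error 0.18, edgeR unadjusted p = 0.00525, adjusted p = 0.647). *Cst3*, which encodes cystatin C, did not overlap either (226 to 302 CPM in WT, 308 to 336 CPM in C2-/-, log2 fold change 0.26, unadjusted p = 0.0452), although its p was under 0.05 in only 2 of the 8 fits that left out a mouse, those without WT replicates 2 or 4. *Timp4* was at 34.8, 29.3, 26.6 and 8.80 CPM in WT and at 12.5, 12.5, 15.7 and 13.3 CPM in C2-/-, so that 3 WT mice were above and WT replicate 4 below every C2-/- mouse (log2 fold change -0.88, unadjusted p = 0.0236, adjusted p = 0.857 from edgeR). Without WT replicate 4, its log2 fold change was -1.15 and its adjusted p 0.0490, while the adjusted p was 0.211 or more with each other alternative. Its unadjusted p was above 0.05 without WT replicate 1 or C2-/- replicates 1 or 2, and it was 0.0868 with limma-voom (log2 fold change -0.71). Of the 10 receptor genes, 6 were higher and 4 were lower with a median of 0.15 (8 and 2 without WT replicate 2), and 0 had an unadjusted p under 0.05, with the smallest for *Glb1* (log2 fold change 0.41, unadjusted p = 0.100). Without the 3 mice with high immediate early genes, the log2 fold change was 0.63 for *Mmp2* (unadjusted p = 0.0131), 0.89 for *Ctsk* (unadjusted p = 0.0243) and 0.50 for *Timp2* (unadjusted p = 0.0132), while *Mfap2* was at 0.51 (unadjusted p = 0.169) and *Bgn* at 0.18 (unadjusted p = 0.215). No gene of these companion lists had an adjusted p under 0.05 with edgeR on all 8 mice.

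Markers of cell types that make or hold elastic fibres also varied among the mice. Of all genes tested, 3.38% were higher in C2-/- at an unadjusted p under 0.05 and 45.8% had a log2 fold change above 0. The 9 tendon markers summed to 66.6, 59.7, 197 and 126 CPM in WT replicates 1 to 4 and to 100, 265, 137 and 277 CPM in C2-/- replicates 1 to 4. Of the 8 that were tested, 7 were higher in C2-/- with a median log2 fold change of 1.22 (0.85 without WT replicate 2), and *Scx* was lower (-0.13). In edgeR, *Tnmd* (unadjusted p = 0.0264) and *Cilp2* (unadjusted p = 0.0233) were under 0.05 without adjustment. With a mouse left out, their unadjusted p rose to as much as 0.0774 for *Tnmd* and 0.0758 for *Cilp2*. The mice with the most tendon marker RNA, C2-/- replicates 2 and 4 and WT replicate 3, were also the highest 3 for *Fbln1*. For *Fbln2*, C2-/- replicate 3 (63.7 CPM) was above WT replicate 3 (62.2 CPM), so its highest 3 differed. *Fmod* alone was at 125 and 147 CPM in C2-/- replicates 2 and 4 and at 95.2 CPM in WT replicate 3. The part of tendon tissue in the fibulin values was not tested.

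The 9 markers of fibro-adipogenic progenitors and fibroblasts summed to between 340 and 435 CPM in WT and to between 478 and 522 CPM in C2-/-, without overlap. *Dcn* made up much of each of these sums, at 185 to 262 CPM in WT and 270 to 317 CPM in C2-/-. All 9 were higher in C2-/-, with a median log2 fold change of 0.37, and *Dcn* (log2 fold change 0.32, unadjusted p = 0.0280) and *Clec3b* (0.53, unadjusted p = 0.00705) were under 0.05 without adjustment. With a mouse left out, the edgeR unadjusted p rose to as much as 0.0733 for *Dcn* and 0.0214 for *Clec3b*. Pericyte markers summed to between 350 and 510 CPM in WT and to between 475 and 568 CPM in C2-/-, with 5 of 5 higher (4 of 5 without WT replicate 2). *Abcc9* alone was at 207 to 331 CPM in WT and at 243 to 309 CPM in C2-/- (log2 fold change 0.07), so 1 gene made up much of each sum. *Pdgfrb* (unadjusted p = 0.0443) and *Cspg4* (unadjusted p = 0.00884) were under 0.05 in edgeR. With a mouse left out, the unadjusted p rose to as much as 0.105 for *Pdgfrb* and 0.0222 for *Cspg4*. Vascular smooth muscle markers summed to 208 to 319 CPM in WT and 272 to 344 CPM in C2-/-, endothelial markers to 230 to 326 and 233 to 304 CPM, macrophage markers to 21.1 to 48.8 and 35.7 to 60.2 CPM, adipocyte markers to 2.39 to 9.56 and 4.77 to 15.8 CPM and Schwann cell markers to 29.8 to 80.4 and 27.2 to 61.6 CPM. Higher in C2-/- were 6 of 6 macrophage markers (median log2 fold change 0.40), 6 of 7 smooth muscle markers (0.25) and 3 of 4 adipocyte markers (0.75). The share was 3 of 6 for endothelial, 2 of 5 for Schwann cell and 3 of 9 for fast fibre markers. Of these 5 lists and the fast fibre markers, 0 genes had an unadjusted p under 0.05, and no marker was at 0 in every mouse. How far cell numbers account for the levels of the elastic-fibre genes was not tested.

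**Figure D5:**
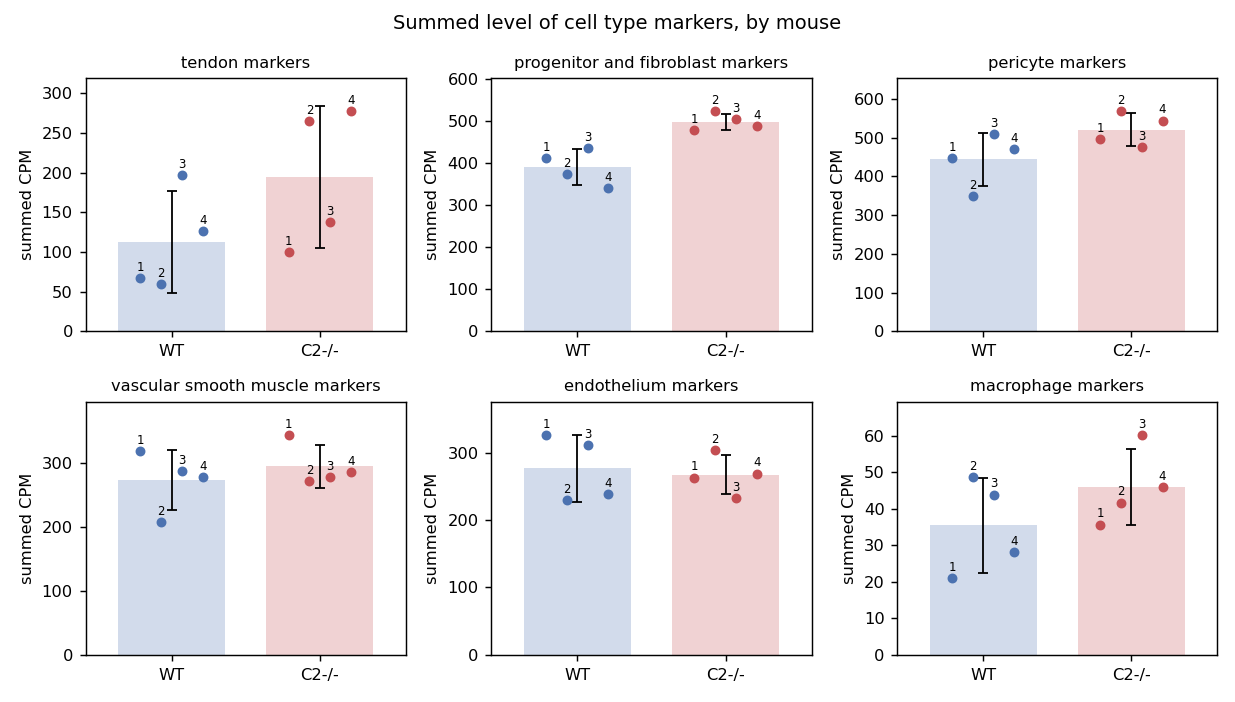
Summed CPM of the markers of 6 cell types on linear axes from 0, with 1 numbered point per mouse, the mean as a bar and the SD as a line (n = 4 mice per genotype). The progenitor and fibroblast sums lie between 340 and 435 CPM in WT and between 478 and 522 CPM in C2-/-, and the tendon sums overlap.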

How the data were processed

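The authors extracted RNA from TA muscles, selected mRNA and sequenced 1 library per mouse on DNA nanoballs. Their methods name HISAT for alignment to GRCm38.p6 and featureCounts, TMM and limma-voom for the tests, and the submitters' processing notes name HISAT, Bowtie2 and DESeq2. The authors deposited 1 gene table with expected counts per gene, not normalized, and TPM. Since 5.5% to 6.53% of each mouse's values were not whole numbers, they were rounded here. The table's log2 fold changes, p-values and q-values of the authors' own DESeq2 comparison were not used, nor were 8 per-sample columns of FPKM. The table has 16687 rows, of which 16686 were usable, and 24 altered symbols were restored from gene IDs. The strand used in counting is not given in the sources used here, and *Fbn1* is listed on the plus strand, although RefSeq and GENCODE vM21 place it on the minus strand. The 10 most highly counted genes took 26.9% to 31.7% of the counts.

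The 4 WT and 4 C2-/- mice were grouped by their labels and compared with edgeR 4.0.16 (R 4.3.3), using its quasi-likelihood test on all genes passing its default filter, TMM factors (0.929 to 1.035) and Benjamini-Hochberg adjustment over 12542 genes. Without adjustment, 663 genes had a p under 0.05. Alternatives comprised DESeq2 1.42.0, limma-voom (limma 3.58.1), RLE size factors, no filter, at least 10 counts in every mouse, the replicate number as a block, leaving out each mouse and, added after seeing the data, leaving out 3 mice with high immediate early genes. Log2 CPM for correlations used a prior count of 2, and 0.5 as an alternative. Correlations of gene pairs were tested in scipy 1.17.1 by exact permutation, two-sided. The fit was tested on simulated data. The p-values measure the spread between mice.

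The members, the lists and the rules were chosen with earlier results of these data known. Named genes are the 10 members, *Mybpc2*, every companion gene with an unadjusted p under 0.05 or otherwise the gene of its list with the smallest p, and the 5 genes most like the members. *Lox*, *Ctsl*, *Mmp9*, *Abcc9*, *Fmod* and *Scx* were named after their values were seen. So were the tendon, fibroblast and pericyte markers with an unadjusted p under 0.05 and the genes that overlap a member. Promoters were taken from RefSeq (GRCm38.p6), and those that overlap GENCODE exons are not shown. An age in 1 growth label conflicts with the 22 months given elsewhere, which does not affect the grouping.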

Additional observations from a re-analysis of the deposited data

Results flagged for a closer look

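In groups of 4 mice, the highest or lowest mouse lay far from the other 3 (above Dixon's 95% critical value) in 6 of 58 groups, where chance gives about 1 in 20. The 58 groups did not cover every gene of the lists. *Ctsl*, at 185 CPM in WT replicate 2 against 33.5 to 47.8 CPM in the other WT mice, is not among the 6. For *Fbn1*, C2-/- replicate 2 was the far mouse, at 13.5 CPM below the other C2-/- mice. The highest value of *Mfap5* in C2-/-, 9.05 CPM in replicate 4, was also far from the rest. Among the companion genes, *Mmp2* was far from the rest in WT replicate 3 at 32.9 CPM, *Mmp14* in C2-/- replicate 4 at 22.6 CPM and *Ctsk* in C2-/- replicate 3 at 4.11 CPM. *Mybpc2* was at 38.3 CPM in C2-/- replicate 3, against 3.85 to 4.35 CPM in the other C2-/- mice.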

How the results depend on the processing

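No member had an adjusted p under 0.05 under any of the 15 alternatives, and their median log2 fold change stayed between 0.21 and 0.54. The 3 members with an unadjusted p under 0.05 became 1 to 4 when a mouse was left out, with 1 (*Fbln2*) without C2-/- replicate 4 or WT replicates 1, 2 or 4, and 1 (*Fbn1*) without the 3 mice with high immediate early genes. The 4 members were called without WT replicate 3, where 7.75% of all genes tested were called, against 5.29% on all 8 mice. This share was 4.00% to 5.89% with another mouse left out and 4.60% without the 3 mice. Genes with an adjusted p under 0.05 among all tested, 4 in number, became 39 with DESeq2, 4 to 7 when a mouse was left out (7 without WT replicate 2) and 2 without those 3 mice. *Mybpc2* then had a log2 fold change of -8.34 with an adjusted p of 0.110, where fewer mice were tested. When a mouse was left out, *Fbln5* ranged from -0.15 to 0.12 and *Emilin1* from -0.10 to 0.27. *Fbln5* turned to -0.15 without C2-/- replicate 4, -0.02 without WT replicate 3, -0.11 without WT replicate 4 and -0.0059 without the 3 mice. *Emilin1* turned to -0.10 without C2-/- replicate 3, -0.04 without WT replicate 4 and -0.14 without the 3 mice, and the cause was not tested.

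Both groups carry replicate numbers 1 to 4, but these are different mice, and the correlations of the deviations of same-numbered mice were 0.27, 0.04, -0.05 and 0.02, so the numbers were not taken as pairs. With the replicate number as a block, 2 members, *Fbn1* and *Fbln2*, had an unadjusted p under 0.05, as did 5.26% of all genes tested. An adjusted p under 0.05 was reached by 0 members and 4 genes of all tested, and the members' median was 0.38. Among the companion genes, the unadjusted p was above 0.05 with the block for *Loxl1* (0.0547), *Mmp14* (0.0967) and *Timp4* (0.0507). Low counts limit *Mfap4*, with 11.0 counts in WT replicate 2.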
